A study of Mus musculus with 29 samples.

Results

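The genes described here are 9 markers of macrophages, namely Adgre1, Csf1r, Mrc1, Cd68, Lyz2, C1qa, C1qb, C1qc and Apoe. They were chosen by gene symbol from RNA-seq tables of mouse bladder, and all 9 have a row in each table used, out of 35199 gene rows. The study expressed VP16;Pparg, an activated form of the nuclear receptor Pparg, with a tamoxifen-inducible Cre under Krt5 (K5VP16;Pparg), so that the transgene is confined to basal urothelial cells and their descendants. The sorted-cell libraries hold Gfp-positive cells taken 4 days after induction from adult mice without carcinogen, 4 libraries labelled wild type (K5;mTmG in the methods) and 5 labelled K5VP16;Pparg+/-. The tumor libraries were laser-captured from frozen bladders of mice labelled with 5 months of BBN, a nitrosamine carcinogen given at 0.05% in drinking water, and tumors were collected 4 months after tamoxifen. They are 3 basal tumors of mice labelled wild type (VP16;Pparg fl/fl or K5;mTmG animals in the methods), 3 luminal tumors of K5VP16;Pparg+/- mice, and from mixed lesions of that genotype 3 upper, luminal domains and 3 lower, basal-like domains. Libraries are named by their numbers in the tables (CT111 and so on). The labels do not say whether libraries of a group come from separate mice or lesions, so each p-value measures the spread between these libraries.

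Macrophages are phagocytes that arise from embryonic precursors and from blood monocytes, and they depend on signalling through the receptor that Csf1r encodes. Adgre1 encodes F4/80, the surface protein by which mouse macrophages are most often recognised, and Mrc1 encodes the mannose receptor Cd206. Cd68 is a lysosomal membrane glycoprotein and Lyz2 the lysozyme of myeloid cells, C1qa, C1qb and C1qc encode the chains of C1q, which opens the classical complement pathway, and Apoe carries lipid out of cells. None of these genes is restricted to macrophages. Apoe is also made by fibroblasts and epithelia, Lyz2 by neutrophils, and Cd68 is found at low level in lysosomes of other cells.

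The C1q genes lie next to each other on chromosome 4, in the order C1qb, C1qc, C1qa, within chr4:136880129-136898803 (GRCm38, GENCODE M21), a span of 18675 bases that holds no other annotated gene, and all are on the minus strand. Lyz2 is on the minus strand of chromosome 10 (117277331 to 117282321), beside its paralog Lyz1. Of the 31-base words in Lyz2 transcripts, 32.8% are shared with Lyz1, and 14.9% of those in Csf1r are shared with other genes, mainly Hmgxb3, whose exons overlap it. The other 7 genes share none. Adgre1 is at chr17:57358691-57483527 (plus strand), Mrc1 at chr2:14229392-14332057 (plus), Cd68 at chr11:69664213-69666153 (minus), and Apoe at chr7:19696109-19699188 (minus). All 9 genes are protein-coding, and the values count reads over a gene's transcripts. The promoters of C1qb and C1qc are shown because these genes varied together across the libraries, and that of Cd68 because its values took another course. Each runs from 250 bases before to 50 bases after the start of the gene (RefSeq, GRCm38.p6, minus strand), at chr4:136886151-136886450, chr4:136892865-136893164 and chr11:69666121-69666420. Capitals mark GAGGAA or its reverse complement TTCCTC, the purine-rich core that PU.1, the myeloid transcription factor encoded by Spi1, shares with other ETS factors.
C1qb: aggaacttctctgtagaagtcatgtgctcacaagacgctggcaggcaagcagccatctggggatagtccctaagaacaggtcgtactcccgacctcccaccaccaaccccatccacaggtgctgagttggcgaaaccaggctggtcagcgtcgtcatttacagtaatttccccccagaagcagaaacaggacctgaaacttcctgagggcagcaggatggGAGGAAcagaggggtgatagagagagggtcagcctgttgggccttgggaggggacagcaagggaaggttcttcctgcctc
C1qc: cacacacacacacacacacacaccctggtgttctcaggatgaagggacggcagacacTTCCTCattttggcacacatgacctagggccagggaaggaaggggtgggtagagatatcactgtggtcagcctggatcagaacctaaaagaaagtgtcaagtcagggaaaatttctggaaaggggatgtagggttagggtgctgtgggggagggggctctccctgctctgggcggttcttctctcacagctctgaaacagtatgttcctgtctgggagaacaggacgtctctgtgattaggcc
Cd68: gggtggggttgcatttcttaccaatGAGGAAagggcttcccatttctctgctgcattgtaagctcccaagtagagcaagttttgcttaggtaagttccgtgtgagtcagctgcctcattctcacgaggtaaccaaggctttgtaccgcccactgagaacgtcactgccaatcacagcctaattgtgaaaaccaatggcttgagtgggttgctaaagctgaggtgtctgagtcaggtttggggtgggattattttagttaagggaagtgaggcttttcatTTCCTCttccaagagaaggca

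C1qb and C1qc each hold 1 match to these 6 letters and Cd68 holds 2. On either strand, 28.3% of 32851 promoters of this length hold at least 1. The longer GAGGAAGT, which contains the core, was found in C1qc and in 3.2% of the promoters. Of the other promoters, that of Mrc1 holds 3 matches to the core and that of Lyz2 holds 0, and the 3 windows listed for Apoe hold 2, 0 and 1. The matches are a description of these windows. The list of RefSeq promoters used here holds no window for Adgre1, C1qa and Csf1r, which is a gap of that list.

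The tables give normalized counts, whose totals lay between 36520193 and 41435665 in the 9 sorted-cell libraries and between 41697178 and 53252995 in the 8 tumor libraries. They are not reads, and the depth of each library is unknown. Pparg was at 13.0 to 126 normalized counts in basal tumors and at 3579 to 8632 in luminal tumors, but in the sorted cells it was at 6111 to 9032 in libraries labelled mutant and 9381 to 9999 in controls, so it did not check those labels. Luminal tumor library CT132 and basal tumor library CT113 stood apart in immune genes, as given below. In bulk libraries such as these, fewer macrophages and less RNA per macrophage cannot be told apart.

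The first comparison asked how the macrophage genes differ between luminal tumors of K5VP16;Pparg mice and basal tumors of controls. All 9 markers had lower means in luminal tumors, with log2 differences of -1.17 to -4.90, but none passed the test (limma on log2 of the normalized count plus 1, Benjamini-Hochberg adjusted over 15357 genes, threshold 0.05). Of all genes tested, 338 (2.20%) passed. At an unadjusted p under 0.05 there were 7 of 9 markers, against 18.4% of all genes. In 5 of the 9, every luminal tumor was below every basal tumor, as was the case for 11.6% of all genes. Adgre1, Mrc1, C1qa, C1qb and C1qc were under 10 normalized counts in luminal tumor CT132, so these 5 met the filter of 10 in 3 libraries only through the other groups. All 5 are among the 7 markers at an unadjusted p under 0.05, and Mrc1, C1qa and C1qc are among the 5 without overlap, so both counts are a description. The median difference of the 9, luminal minus basal, was -4.53, and that of all genes -0.11.

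Of the surface receptors, Adgre1 was at 2034, 1143 and 172 in basal tumors CT111, CT113 and CT115 and at 275, 1.17 and 44.4 in luminal tumors CT126, CT132 and CT140. The ranges overlapped, because basal tumor CT115 lay below luminal tumor CT126. Its log2 difference, with its standard error (SE), was -4.62 ± 1.73 SE, with a 95% interval of -8.52 to -0.73 and an adjusted p of 0.201. Mrc1 was at 971, 830.3 and 216 against 184, 0 and 85.2, with no overlap and a log2 difference of -4.48 ± 1.92 SE (adjusted p = 0.255). Csf1r was at 1145, 2018 and 413 against 692, 16.3 and 231, and overlapped, at -2.81 ± 1.32 SE (adjusted p = 0.296). For all 3 receptors the lowest basal tumor was CT115 and the lowest luminal tumor CT132.

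The C1q genes varied together. C1qa was at 9658, 8881 and 2672 in basal tumors and at 1628, 8.06 and 579 in luminal tumors, with no overlap. C1qc was at 9232, 9465 and 2111 against 1738, 5.78 and 718, again with no overlap. C1qb was at 8239.9, 11769 and 2522 against 2895, 3.46 and 1251. Here luminal tumor CT126 was above basal tumor CT115, so the ranges met. Log2 differences were -4.90 ± 1.59 SE, -4.80 ± 1.72 SE and -4.63 ± 1.98 SE, with adjusted p of 0.148, 0.184 and 0.254 in the order C1qa, C1qc, C1qb. Luminal tumor CT132, near 0 for all 3, enlarged these differences. Without it they were -2.65, -2.35 and -1.72, and the median of the 9 markers was -2.35, with 0 passing. Without CT126 instead, that median was -6.13.

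Lyz2 and Apoe followed the same order of groups. Lyz2 was at 127530.5, 19407 and 22585 in basal tumors and at 7971, 213 and 2650.3 in luminal tumors, with no overlap, and its log2 difference was -4.53 ± 1.18 SE, with a 95% interval of -7.18 to -1.89 and an adjusted p of 0.0859. Its paralog Lyz1 reached 121 at most, in CT111, and was not tested. Apoe was at 56974, 40697 and 98309 against 25087, 278 and 2718, with no overlap, and differed by -4.52 ± 1.31 SE, with a 95% interval of -7.45 to -1.58 and an adjusted p of 0.117. Cd68 differed least. It was at 1728, 643 and 1474 in basal and 573, 299.9 and 833 in luminal tumors, where CT140 lay above basal tumor CT113, and the difference was -1.17 ± 0.56 SE, with a 95% interval of -2.43 to 0.087 and an adjusted p of 0.304.

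**Figure D1:**
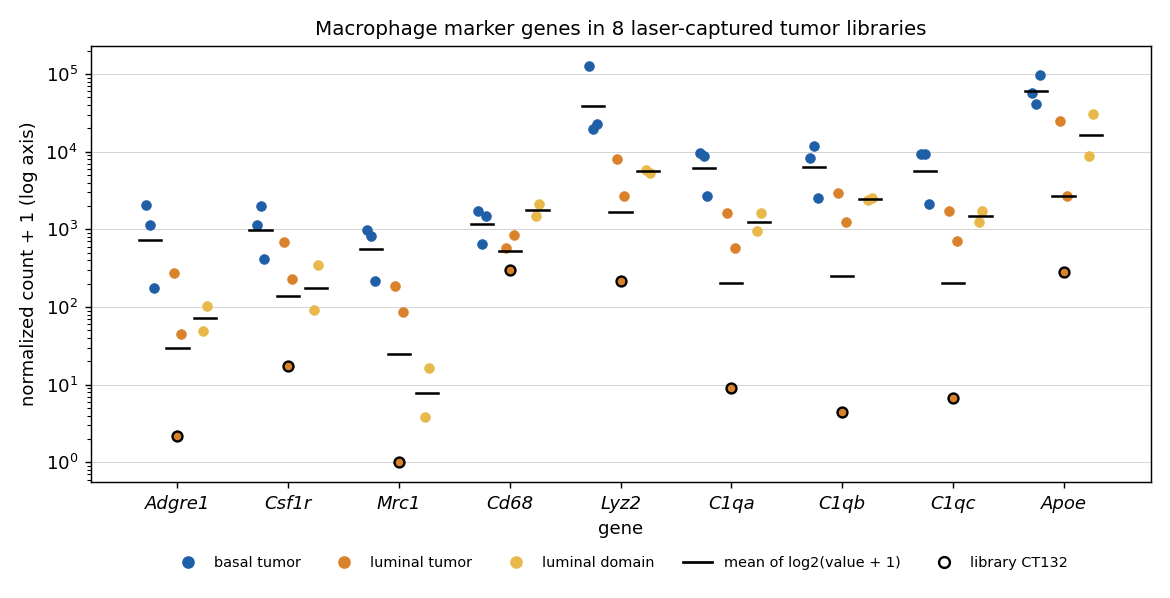
Normalized counts plus 1 (log axis) of the 9 marker genes in 3 basal tumors, 3 luminal tumors and 2 luminal domains, 1 point per library, with black bars at the mean of the log2 values. Library CT132, ringed, is lowest of the luminal tumors for all 9 genes, with Cd68 at 299.9 and Mrc1 listed at 0.

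In CT132 the C1q genes summed to 17.3 normalized counts, against 2547 and 6261 in the other luminal tumors, and Mrc1 was listed at 0. Cd68 (299.9) was not near 0 there. Without CT132 the log2 differences were -2.72 for Adgre1, -2.15 for Mrc1, -1.30 for Csf1r, -3.06 for Lyz2, -2.89 for Apoe and -0.77 for Cd68, each smaller than with it. Markers of fibroblasts summed to 212 in CT132 and to 805 and 17149 in CT126 and CT140, against 45143 to 67706 in basal tumors. Smooth muscle markers summed to 149.6 to 1229 in luminal and 5863 to 47055 in basal tumors. Urothelial and epithelial markers were at 246869 to 749065 and 98169 to 241184. T cell markers summed to 204 in CT132, with 3 of 8 at 0, and Spi1 was listed at 0 there. Stromal markers differed between the tumor groups beside the macrophage markers. At an adjusted p under 0.05, 3 of 7 fibroblast genes (Col1a1, Col1a2, Pdgfrb) and 3 of 5 smooth muscle genes (Acta2, Tagln, Cnn1) fell. Krt8, Upk2 and Upk3a rose at that threshold. The falls are lost without CT126 or without CT132, when 0 genes of the whole table passed in the lower direction. In the higher direction 3 genes passed without CT126 and 3 without CT132, against 194 with all libraries. Without CT111, 12 genes passed in the higher and 2 in the lower direction. Whether Krt8, Upk2 and Upk3a are among those left is not given here. The part of this stromal difference in the macrophage values was not tested.

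Genes that work beside the markers were read as lists, chosen with earlier results of these data known. From these lists 5 genes passed, all lower in luminal tumors. Of all 15357 genes tested, 144 (0.938%) passed in that direction, so the count of 5 is a description. Of the phagocytic receptors, Fcgr1, the high-affinity receptor for IgG, was at a mean of 4.10 in luminal and 326 in basal tumors and fell by 7.08 on the log2 scale (adjusted p = 0.0419), and Fcgr3 fell by 3.56 (adjusted p = 0.0403). These were 2 of the 10 receptors tested. Spp1, encoding osteopontin, was the 1 called gene of 10 in the activation list and fell by 6.77 (adjusted p = 0.0464). Of 7 genes of arginine metabolism, the transporter Slc7a2 fell by 4.99 (adjusted p = 0.0467), and of 12 lysosome and lipid genes the cathepsin Ctsl fell by 4.36 (adjusted p = 0.0364). Fcgr1 was listed at 0 in 2 luminal tumors and at 12.3 in the other, so it met the filter of 10 normalized counts in 3 libraries only through the other groups, as did Spp1 and Slc7a2, each under 10 in 1 luminal tumor. Without CT126 or without CT132 0 genes of the whole table passed in the lower direction, and without CT111 2 genes passed, so at least 3 of these 5 calls are lost when any of those libraries is left out. With no filter on low values 7 genes passed in that direction.

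All 16 genes of the pan-myeloid list had lower means in luminal tumors and none passed, with a median of -3.24. Ptprc, which encodes the leukocyte antigen Cd45, was at a mean of 241 against 2118 (-3.75 ± 0.99 SE, adjusted p = 0.0915), and Tyrobp, the adaptor of Trem2, at 1570.01 against 8231 (-2.78 ± 1.23 SE, adjusted p = 0.271). The chemokine gene Pf4 differed most on that list, at -5.84 ± 1.59 SE (adjusted p = 0.0983), followed by Cybb at -4.42 ± 1.70 SE (adjusted p = 0.210). All 9 complement genes outside C1q tested also had lower means and none passed, the largest differences being those of the receptor C3ar1 (-6.09) and of Cfb (-5.91). The growth factors that feed Csf1r did not pass either. Csf1 differed by -1.79 ± 1.29 SE (adjusted p = 0.501) and Il34, the other ligand, by -5.88 ± 1.86 SE (adjusted p = 0.140), while Spi1 differed by -3.68 (95% interval -8.17 to 0.80, adjusted p = 0.368) and Csf2rb, the shared beta chain of cytokine receptors, by -4.45 (adjusted p = 0.125). Il34, Spi1, C3ar1 and Cfb did not reach 10 normalized counts in every luminal tumor. These genes met the filter of 10 in 3 libraries only through the other groups.

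The second comparison set the luminal domains of mixed lesions against the same 3 basal tumors, in a table normalized on its own, so it shares its reference libraries with the first. Of the 9 markers 8 had lower means in luminal domains, and none passed. limma called 377 of 14921 genes (2.53%). Among genes of arginine metabolism, Slc7a2, which imports arginine, was at 30.4 against 507 (-4.04 ± 0.86 SE, adjusted p = 0.0550), with no overlap, and Odc1, the ornithine decarboxylase, at 2947 against 7465 (-1.26 ± 0.37 SE, adjusted p = 0.117), again with no overlap.

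Mrc1, Lyz2 and Apoe, 3 of the 9 markers, did not overlap between the groups, against 12.8% of all genes lower without overlap. Mrc1 was at 1125, 944 and 248 in basal tumors CT111, CT113 and CT115 and at 3.35, 18.2 and 177 in luminal domains CT128, CT143 and CT148. It met the filter of 10 normalized counts in 3 libraries only through the basal tumors, so the count of 3 without overlap is a description. Mrc1 differed by -4.71 ± 1.44 SE, with a 95% interval of -8.02 to -1.39 and an adjusted p of 0.128. Lyz2 was at 134136, 20014 and 23488 against 6287, 5711 and 12267 (-2.39 ± 0.70 SE, adjusted p = 0.119). Apoe was at 61489.6, 43066 and 104907 against 9672, 34116 and 15625 (-1.92 ± 0.52 SE, adjusted p = 0.0975).

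The C1q genes, F4/80 and Csf1r overlapped here. C1qa was at 999.6, 1757 and 3313 in the domains against 2775 to 10144 in basal tumors, and domain CT148 lay above basal tumor CT115. C1qb was at 2528, 2714 and 5058, against 2620.4 to 12124. C1qc was at 1343, 1841 and 4195, against 2194 to 9756. Their log2 differences were -1.82 ± 0.60 SE, -1.00 ± 0.57 SE and -1.44 ± 0.66 SE, with adjusted p of 0.150, 0.371 and 0.265. Adgre1 was at 52.4, 112 and 307 in the domains against 179.97 to 2148 (-2.65 ± 1.09 SE, adjusted p = 0.221), and Csf1r at 96.0, 377 and 822 against 429.9 to 2083 (-1.72 ± 0.91 SE, adjusted p = 0.332). In each of these 5 genes CT128 was the lowest domain and CT148 the highest.

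Cd68 alone had the higher mean in luminal domains. It was at 1700.1, 2439 and 1632 there and at 1943, 709 and 1639 in basal tumors, overlapping, and its log2 difference of 0.53 ± 0.45 SE had a 95% interval of -0.52 to 1.57 (adjusted p = 0.560). It was 0.084 without CT113. With single libraries left out, the differences of the other markers ran over -3.70 to -1.92 (Adgre1), -2.42 to -0.88 (Csf1r), -6.13 to -3.46 (Mrc1), -2.42 to -1.40 (C1qa), -1.65 to -0.55 (C1qb), -2.16 to -1.08 (C1qc), -2.88 to -1.51 (Lyz2) and -2.41 to -1.50 (Apoe), with none passing. The smallest was without CT128 for Csf1r, without CT113 for C1qb and without CT111 for Lyz2. At an unadjusted p under 0.05 there were 5 of 9 markers, against 20.6% of all genes, and the median difference was -1.82 against 0.0097 over all genes. Mrc1, which met the filter only through the basal tumors, is among these 5, so the count is a description. Beside these, 16 of 16 pan-myeloid genes and 9 of 9 complement genes had lower means, none called. Ptprc differed by -2.51 ± 0.74 SE (adjusted p = 0.118), Tyrobp by -2.02 ± 0.93 SE (adjusted p = 0.267), Spi1 by -2.32 ± 0.86 SE (adjusted p = 0.186) and Csf1 by -1.20 ± 1.25 SE (adjusted p = 0.633). Fibroblast markers summed to 5298 to 31667 in the domains and 46663 to 71458 in basal tumors, and neutrophil markers, which bear on Lyz2, summed to 227 to 8042 and 559 to 17636. All 5 smooth muscle markers had lower means in the domains, with a median log2 difference of -3.99. Acta2, Tagln and Cnn1 fell at an adjusted p under 0.05. Cnn1 was listed at 0 in all 3 domains and met the filter only through the basal tumors, so its call is a description. Of 8 urothelial and epithelial markers 6 had higher means, and Upk2, a uroplakin of superficial cells, rose by 7.58 (adjusted p = 0.0258). These smooth muscle and Upk2 calls are lost without CT128 or without CT143, when 0 genes of the whole table passed. The smooth muscle calls are also lost without CT148, when 0 genes passed in the lower direction. The part of these other cell types in the marker values was not tested.

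Of the further lists in this comparison, the receptors Msr1 (-5.21, 95% interval -9.76 to -0.65) and Trem2 (-3.04, 95% interval -8.49 to 2.41) differed most among 10 phagocytic receptors, of which 9 had lower means in luminal domains. The cytokine genes Il6 (-4.94, 95% interval -8.78 to -1.10) and Tnf (-4.30, 95% interval -8.41 to -0.19) led the activation list, where 7 of 10 were lower. Il6, at means of 11.6 in the domains and 118 in basal tumors, met the filter of 10 normalized counts in 3 libraries only through the basal tumors. Complement was led by C3 (-2.96, 95% interval -5.52 to -0.41) and Cfb (-2.95, 95% interval -5.24 to -0.65), the pan-myeloid list by Cybb (-2.65, 95% interval -4.43 to -0.87) and the growth factor list by Csf2rb (-2.71, 95% interval -4.80 to -0.63). Of 12 lysosome and lipid genes 6 were lower and 6 higher, with Ctsl at -1.90, 95% interval -3.51 to -0.29 and the liver X receptor gene Nr1h3 at 1.81, 95% interval -2.55 to 6.17. None of the genes on these lists passed. Lyz1 was at 5.72 to 127 in basal tumors and at most 3.52 in luminal domains, and was not tested.

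**Figure D2:**
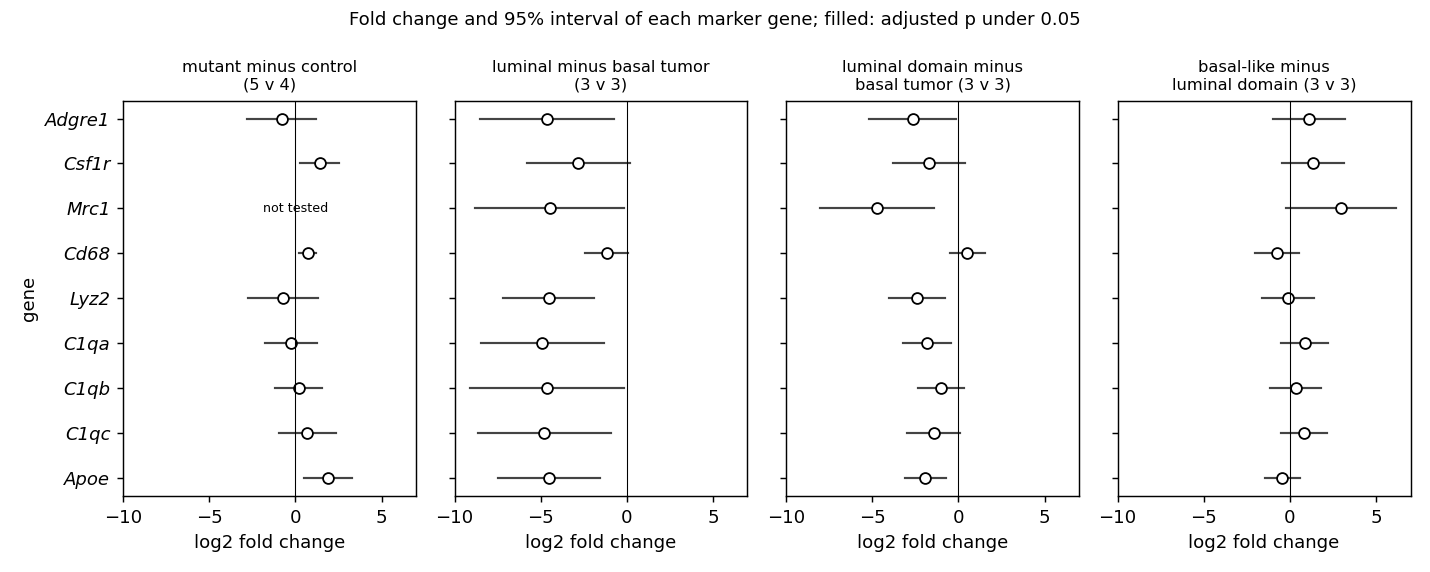
Log2 fold change (x axis) of each marker gene with its 95% interval in 4 comparisons, with the numbers of libraries in brackets and filled points for an adjusted p under 0.05. No point is filled, and Mrc1 was not tested in the sorted cells.

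The third comparison asked whether the basal-like domains of mixed lesions differ from the luminal domains. No marker passed. Over all 14874 genes limma called 0 (0%), with 757 (5.09%) at an unadjusted p under 0.05, where no marker was found. Upper and lower domains may come from the same lesion, and their library numbers run as neighbours (CT128 and CT129, CT143 and CT144, CT148 and CT149). No label pairs them, so they were fitted as unpaired. Between neighbours, Adgre1 and C1qc were higher in each basal-like domain, and the other markers went both ways. A paired difference was not tested. Without the trend in the variance 20 genes passed, of which none was a marker. Means on the log2 scale were higher in basal-like domains for 6 of 9 markers, with a median difference of 0.83, and for 7548 of all 14874 genes. The groups overlapped for all 9 markers. Of all genes, 5.62% were higher and 5.14% lower in basal-like domains without overlap.

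Mrc1 differed most, by 2.95 ± 1.38 SE, with a 95% interval of -0.22 to 6.13 and an adjusted p of 0.935. It was at 4.01, 22.0 and 214 in luminal domains and at 292, 242 and 161 in basal-like domains CT129, CT144 and CT149. The basal-like values were close together, whereas the luminal values spanned 53.4-fold and CT148 lay among the basal-like domains. With CT128 under 10, Mrc1 met the filter of 10 normalized counts in 3 libraries only through the basal-like domains. Csf1r was at 98.4, 392 and 852 against 1183, 604 and 729.8 (1.32 ± 0.78 SE), and Adgre1 at 53.1, 115 and 315 against 347, 124 and 478 (1.13 ± 0.90 SE). Without CT128 the differences were 1.68 for Mrc1, 0.48 for Csf1r and 0.53 for Adgre1, and without CT148 they were 4.39, 2.03 and 1.80. The adjusted p of all 9 markers lay between 0.935 and 0.992.

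C1qa was at 1000.5, 1781 and 3355 in luminal and 3534, 1559 and 6435 in basal-like domains, C1qb at 2533, 2754 and 5128 against 5261, 1458 and 9563, and C1qc at 1347, 1870.4 and 4259 against 4191, 1885 and 7575. Differences were 0.86 ± 0.59 SE, 0.35 ± 0.64 SE and 0.83 ± 0.58 SE. Among basal-like domains CT149 was highest and CT144 lowest for each C1q gene, and the median of the 9 markers was 0.35 without CT149 and 0.43 without CT128, but 1.35 without CT144 and 1.299 without CT148.

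Apoe, Cd68 and Lyz2 had lower means on the log2 scale in basal-like domains. Apoe was at 9731, 34765 and 15907 against 13736, 10017 and 15616 (-0.44 ± 0.44 SE, 95% interval -1.46 to 0.58). Cd68 was at 1802, 2619 and 1750.3 against 1919.6, 469 and 1880.4 (-0.76 ± 0.55 SE, 95% interval -2.04 to 0.52). The Cd68 difference was -1.10 without CT129 and -0.089 without CT144. Lyz2 was at 6319, 5814 and 12476 against 15346, 2332 and 10258 (-0.11 ± 0.66 SE, 95% interval -1.64 to 1.42), and its sign turned when CT144 or CT148 was left out. For all 3 genes the groups overlapped.

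Among the surrounding genes, Spi1 (means of 164 and 699, 2.38 ± 0.80 SE) and C4b (means of 36.8 and 422, 3.19 ± 0.93 SE) were higher in every basal-like domain than in any luminal domain, yet had adjusted p of 0.935 and 0.830. Il34, with Spi1 the furthest apart of the growth factor list, had the lower mean log2 value in basal-like domains (-1.79, 95% interval -6.66 to 3.08). Lyz1 reached 6.33 at most in these libraries and was not tested. Means on the log2 scale were higher for 14 of 16 pan-myeloid genes and 8 of 9 complement genes, none called. The largest pan-myeloid differences were those of the chemokine receptor Ccr2 (2.68 ± 1.34 SE) and the oxidase subunit Cybb (1.90 ± 0.80 SE), and Ptprc differed by 1.18 ± 0.65 SE, Tyrobp by 1.02 ± 0.71 SE and Csf1 by -0.14 (95% interval -2.68 to 2.40), all overlapping. The scavenger receptor Msr1 (3.75, 95% interval -0.88 to 8.37), the lectin Clec10a (2.53 ± 1.81 SE) and the costimulatory ligands Cd86 (2.89 ± 1.25 SE) and Cd80 (2.44 ± 1.50 SE) differed most on their lists. Cfb followed C4b among the complement genes (2.06 ± 1.08 SE). The argininosuccinate lyase gene Asl (-0.65 ± 0.38 SE) was lower in every basal-like domain than in any luminal domain, and the ornithine aminotransferase gene Oat (0.54 ± 0.27 SE) higher. Among lysosome and lipid genes Nr1h3 (-1.77 ± 1.32 SE) and the lipid exporter gene Abcg1 (-1.47 ± 1.02 SE) had the largest differences. T cell markers summed to 574 to 1793 in luminal and 1986 to 3991 in basal-like domains and fibroblast markers to 5519.9 to 32698 and 14142 to 104544, whose part in the macrophage values was not tested.

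**Figure D3:**
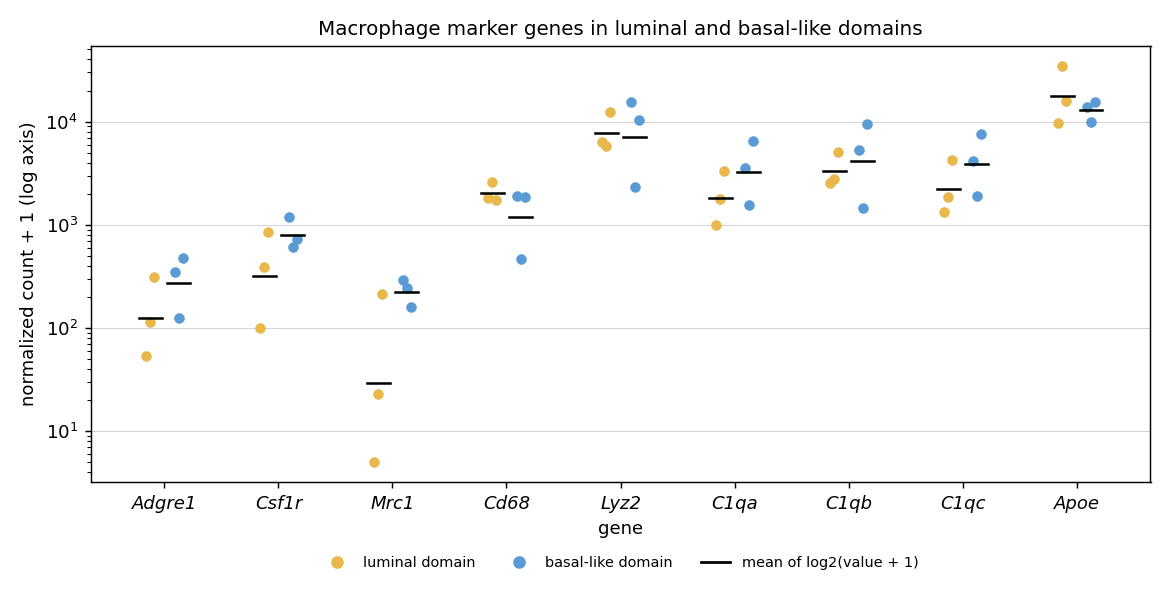
Normalized counts plus 1 (log axis) of the 9 marker genes in 3 luminal and 3 basal-like domains, 1 point per library, with black bars at the mean of the log2 values. The groups overlap for every gene, and Mrc1 spans 4.01 to 214 in the luminal domains.

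Luminal domains and luminal tumors could be set against each other in the table of 8 tumor libraries, with 2 domains and 3 tumors. limma called 0 of 15357 genes (0%), with 723 (4.71%) at an unadjusted p under 0.05. Cd68 was the 1 marker among these, at 1489.8 and 2109.9 in domains CT128 and CT143 and 573, 299.9 and 833 in the tumors. Both domains were above every tumor, as for 10.9% of all genes, and the log2 difference was 1.76 ± 0.63 SE (adjusted p = 0.982). The 3 C1q genes differed by 2.60 ± 1.77 SE, 3.27 ± 2.22 SE and 2.85 ± 1.92 SE in the order C1qa, C1qb, C1qc, and without CT132 by 0.35, 0.36 and 0.39. Mrc1 had the lower mean in the domains (-1.67 ± 2.15 SE), and Adgre1 (1.26 ± 1.94 SE), Csf1r (0.34 ± 1.48 SE), Lyz2 (1.75 ± 1.32 SE) and Apoe (2.63 ± 1.46 SE) higher ones on the log2 scale.

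No gene of the further lists passed between luminal domains and luminal tumors. Among phagocytic receptors Fcgr1 (5.60, 95% interval 2.01 to 9.19) and Mertk (2.58, 95% interval -1.58 to 6.75) had the largest differences, and among activation genes Cd80 and Tnf. Cd80 was listed at 0 in all 3 luminal tumors, against a mean of 103 in the domains, and Tnf was at 34.2 in domains and 283 in tumors (-4.64, 95% interval -8.60 to -0.68). Il34 (4.06, 95% interval -0.61 to 8.72) and Csf2rb (0.92, 95% interval -2.41 to 4.26) led the growth factors and regulators, Pf4 (3.59, 95% interval -0.40 to 7.58) and Cx3cr1 (3.43, 95% interval -1.40 to 8.26) the pan-myeloid genes, and C4b (3.33, 95% interval -1.61 to 8.28) and the receptor gene C5ar1 (3.27, 95% interval -1.31 to 7.85) the complement genes. Ctsl (2.21, 95% interval 0.15 to 4.26) and Nr1h3 (1.76, 95% interval -3.46 to 6.97) led the lysosome and lipid genes, and Slc7a2 (0.83, 95% interval -1.80 to 3.47) and Slc7a1 (0.75, 95% interval -0.23 to 1.74), transporters of arginine, the arginine list. Ptprc was at 0.57, Tyrobp at 0.055, Spi1 at 0.58 and Csf1 at 0.21, each with an interval that spans 0. Lyz1 was at means of 1.66 in the domains and 1.54 in the tumors and was not tested. Markers of some other cell types also had higher means on the log2 scale in the domains, none called. These were 7 of 7 for fibroblasts (median 3.22), 6 of 6 for endothelium (median 2.85) and 4 of 5 for smooth muscle (median 2.62). Of the macrophage markers 8 of 9 were higher on that scale (median 1.76). Without CT132, 6 of 9 macrophage markers had higher means, with a median of 0.35, and Lyz2 differed by 0.28 and Apoe by 1.00, and without CT126 the median was 2.89. Neutrophil markers, which bear on Lyz2, had higher means in the domains for 1 of 6 (median -2.12), and urothelial and epithelial markers for 4 of 8. Fibroblast markers summed to 29595 and 5564 in the domains, against 212 to 17149 in the tumors. Their part in the marker values was not tested.

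The markers also differed in how they kept pace with each other. Relative to the summed C1q genes of the same library, which were set at 100, Adgre1 was at 1.07 to 7.50 over the 8 tumor libraries, although the sum itself ran from 17.3 in CT132 to 30114 in CT113. Apoe was at 1346 in basal tumor CT115, whose C1q sum of 7306 was lowest of the basal tumors, and at 135 in CT113. Cd68 was at 2.13 to 20.2 in basal tumors and at 32.6 and 36.1 in luminal domains CT128 and CT143, against 9.16 and 32.7 in luminal tumors CT126 and CT140. In the table of basal tumors and luminal domains, Cd68 was at 13.0 in the remaining luminal domain, CT148, inside the range of 2.28 to 21.6 in the basal tumors there. Within the sum, C1qb made up 30.4% to 39.1% in basal tumors and 43.0% to 51.9% in the luminal libraries of the 8-library table other than CT132, and domain CT148 had 40.3% in its own. The ratios in CT132 rest on a sum of 17.3. These are ratios of normalized counts, with no correction for transcript length.

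Across libraries, the pattern of the 3 C1q genes was compared with each gene by Pearson correlation of log2 values, given as a description over libraries that share normalization and groups. Adgre1 followed C1q most closely among the other markers, with r = 0.94 over the 8 tumor libraries and 0.94 over the 6 domain libraries. Csf1r (0.92 and 0.67), Lyz2 (0.92 and 0.74) and Mrc1 (0.82 and 0.58) came next. Apoe had 0.91 and 0.18 and Cd68, the lowest in the tumors, 0.64 and 0.38. Among 14451 genes outside the 9 markers, the 6 with the highest smaller r were H2-DMa, Tnfrsf9, Fcer1g, Ly86, Phf11b and Itgax, with 0.98 and 0.98 for H2-DMa, which helps to load peptides on class II molecules, and 0.94 and 0.91 for Itgax, which encodes the integrin Cd11c. Fcer1g, a signalling chain of Fc receptors, had 0.94 and 0.97. Library CT132 is the low point of the 8-library pattern, with H2-DMa at 1.16 and Tnfrsf9 and Itgax listed at 0.

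**Figure D4:**
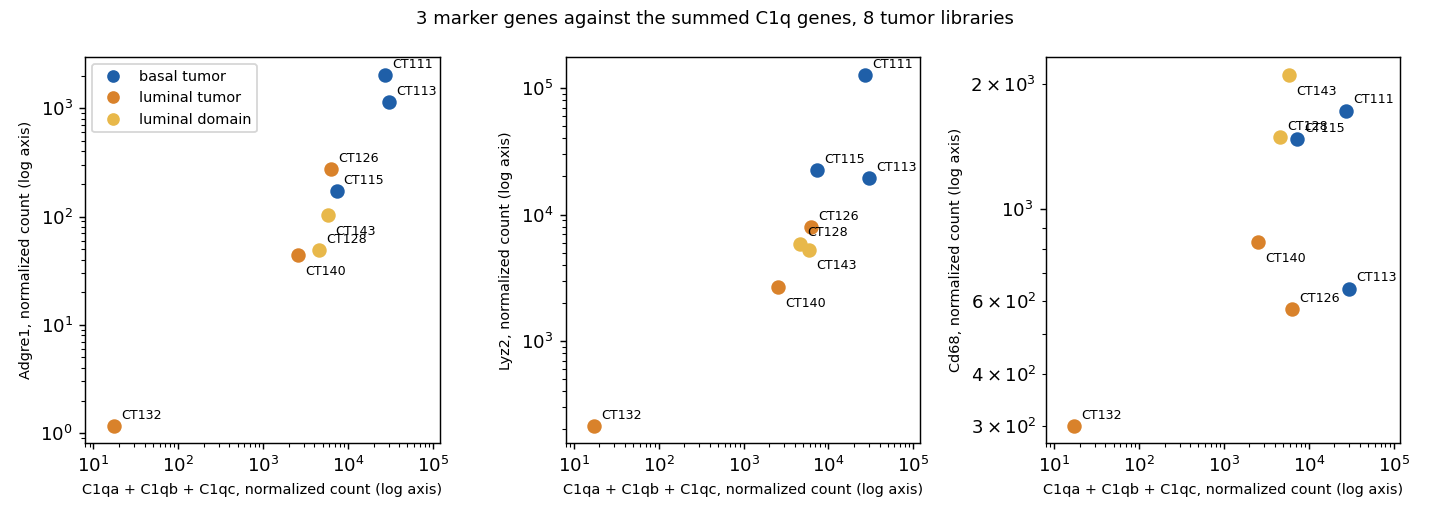
Adgre1, Lyz2 and Cd68 (y axes, normalized counts, log axes) against the summed C1qa, C1qb and C1qc counts (x axes, log axes), 1 point per library of the 8-library table. All 3 are lowest where C1q is lowest, in CT132, and Cd68 is highest in luminal domain CT143, at 2109.9, with a C1q sum of 5844.

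Basal tumor CT113 differed from CT111 and CT115 in other immune cells. Its T cell markers summed to 9551 against 661 and 568, its mast cell markers to 17724 against 232 and 1932, its NK cell markers to 7789 against 301 and 313, and its neutrophil markers to 545 against 16871 and 13978. Lyz2 was lowest of the basal tumors in CT113, where neutrophil markers were lowest, and the part of neutrophils in Lyz2 was not tested. Luminal tumor CT140 had neutrophil markers at 17263, above that of CT111, with Lyz2 at 2650.3. Without CT113, the luminal against basal differences of the 9 markers had a median of -4.31, and none passed.

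The last comparison asked whether these genes differ between mutant and control cells sorted 4 days after induction of VP16;Pparg. No marker passed, and only 8 of 9 were tested, since Mrc1 was at 3.66 to 26.8 normalized counts. limma called 467 of 16413 genes (2.85%), 290 higher and 177 lower, or 270 higher and 287 lower after quantile normalization. At an unadjusted p under 0.05 there were 3 of 8 markers, against 20.8% of all genes, and with array weights 1 marker, Csf1r, passed (1.78, adjusted p = 0.0421). Means on the log2 scale were higher in mutants for 5 and lower for 3.

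Cd68 was at 155, 183, 151 and 221 in controls CT063, CT065, CT066 and CT067 and at 406, 226, 340.1, 257 and 248 in mutants CT070, CT071, CT074, CT076 and CT078. Each mutant library was above each control, as were 4.67% of all genes, and the log2 difference was 0.71 ± 0.22 SE, with a 95% interval of 0.21 to 1.21 and an adjusted p of 0.110. Apoe was at 701 to 1857 in controls and at 8987, 1983, 8658, 5259.7 and 1080.1 in the mutants. CT078 lay within the control range, and the difference was 1.90 ± 0.62 SE, with a 95% interval of 0.52 to 3.29 and an adjusted p of 0.122. Without CT078 it passed, at 2.37 (adjusted p = 0.0446). Csf1r was at 38.6 to 85.0 in controls and at 97.1, 61.8, 318, 172 and 266 in mutants, overlapping through CT071, with a difference of 1.41 ± 0.51 SE, with a 95% interval of 0.28 to 2.54 and an adjusted p of 0.152.

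The C1q genes and F4/80 overlapped between the groups. C1qa was at 13.4 to 27.4 in controls and 4.28 to 47.3 in mutants (-0.25 ± 0.68 SE), C1qb at 24.4 to 65.3 and 9.44 to 84.9 (0.20 ± 0.61 SE), and C1qc at 9.57 to 22.8 and 2.59 to 63.8 (0.70 ± 0.75 SE). Adgre1 was at 18.9 to 62.6 and 0.873 to 54 (-0.80 ± 0.89 SE). Without CT070 all 8 tested markers had the higher mean on the log2 scale in mutants, and none passed. Mutant CT070 was the lowest library of all 9 for these 4 genes and for Lyz2, yet the highest for Cd68 and Apoe. Lyz2 was at 424 to 1342 in controls and 47.6 to 1554 in mutants (-0.70 ± 0.91 SE). Adjusted p of the 8 tested markers ran from 0.110 to 0.879.

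None of the leukocyte genes passed the test either. Ptprc was at a mean of 71.3 in mutants and 75.3 in controls (-0.10 ± 0.27 SE), Tyrobp at 30.4 and 24.0 (0.10 ± 0.72 SE) and Spi1 at 9.33 and 12.2 (-0.26 ± 0.47 SE). Of 14 pan-myeloid genes tested, 7 had higher and 7 lower means, and the legumain gene Lgmn had the largest difference, 0.79 ± 0.24 SE (adjusted p = 0.0979). Gpnmb, a glycoprotein of macrophages and melanosomes, was the 1 called gene of 11 in the activation list and rose by 0.59 ± 0.13 SE (adjusted p = 0.0427). Its means were 24385 normalized counts in controls and 37098 in mutants, far above those of Ptprc. Which cells this RNA came from was not tested. Sex and group were nearly the same split, as given below. With a term for sex 26 genes of the whole table passed, against 467 without it. Ctsd, which encodes a lysosomal protease, was at 64023 and 99094 (0.62 ± 0.15 SE, adjusted p = 0.0584). Csf1 differed by 1.64 ± 0.63 SE (adjusted p = 0.178), C4b by 2.45 ± 0.74 SE (adjusted p = 0.0988) and Axl by 1.36 ± 0.51 SE (adjusted p = 0.169). The other leading genes of their lists had log2 differences of 1.50 for Fcgr2b, 0.60 for Il34, 0.65 for Itgam, 1.48 for C1s1, 0.79 for Slc7a2, 0.64 for Oat and 0.75 for Lpl, none called. Lyz1, the paralog of Lyz2, was at means of 18.1 in controls and 112 in mutants (1.52, 95% interval -0.59 to 3.63).

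Markers of fibroblasts were also higher in the mutant means. They summed to 11668 to 84727 in controls and 30691 to 217844 in mutants, all 7 had higher means in mutants, and Lum passed (rise of 2.70, adjusted p = 0.0303), while Epcam fell by 0.72 (adjusted p = 0.0189). Urothelial and epithelial markers summed to 266441 to 386229.7 and 286692 to 484903. All 5 smooth muscle markers had higher means in mutants too (median 1.47, none called), and Des (2.40) and Myh11 (1.41) were higher in every mutant than in any control. By the study's methods the urothelium was parted from the stroma by hand before the sort for Gfp, steps that should remove both cell types. The part of fibroblast and smooth muscle RNA in these values was not tested. Y-linked genes summed to 9030.2 to 9177 in 3 controls and to 338 to 404 in control CT063 and all 5 mutants, so that sex, as these genes mark it, and group were nearly the same split. With a term for sex, Cd68 differed by 0.89 (adjusted p = 0.550), Apoe by 2.23 (adjusted p = 0.597) and Csf1r by 0.85 (adjusted p = 0.851). Over all genes 26 passed with that term, against 467 without it. Values of Gpnmb, Lum and Epcam under it are not given here.

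**Figure D5:**
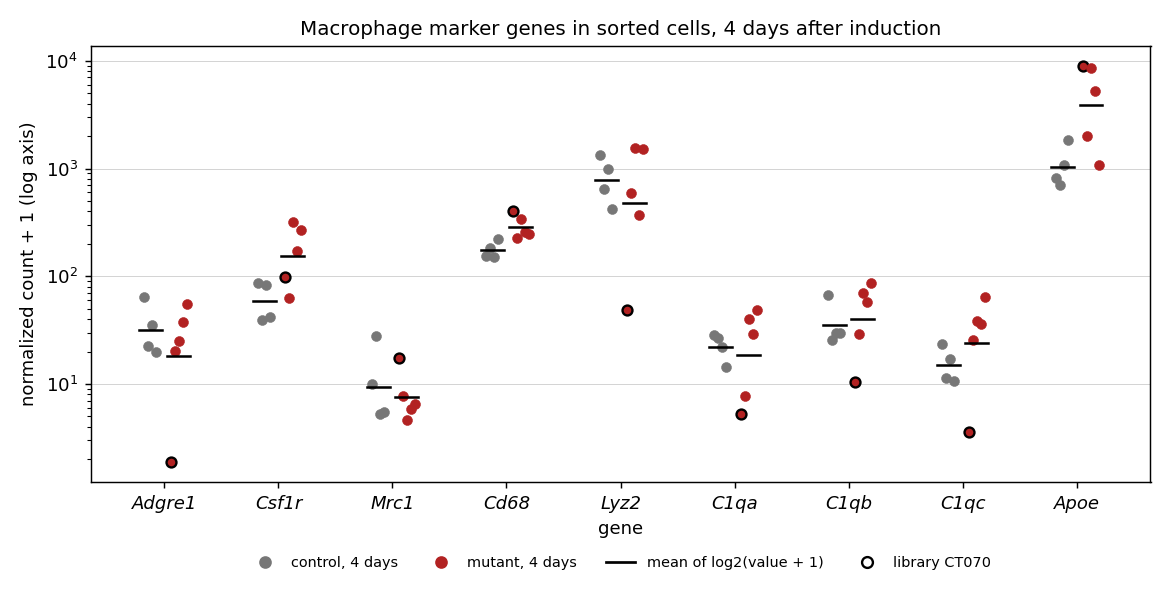
Normalized counts plus 1 (log axis) of the 9 marker genes in 4 control and 5 mutant libraries of sorted cells, 1 point per library, with black bars at the mean of the log2 values. Library CT070, ringed, is lowest for Adgre1, Lyz2 and the C1q genes, and Cd68 is the 1 gene whose groups do not overlap.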

How the data were processed

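RNA-seq was taken from 21 of the 29 libraries of the series, in 5 tables. The authors quantified transcripts with kallisto 0.44.0, summed them to genes with tximport and normalized each table with DESeq2 1.18, so that the deposited values are a signal, namely normalized counts. The index and build of these tables are not given in the sources used here. Whole reads could not be recovered, so depth and counting error are unknown. A further deposited table with 8 columns of per-sample values (wild type mice with and without BBN) was not used, because its columns could not be tied to the labels. The authors' lists of fold changes and p-values were not used.

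Comparisons were made within a table, with samples grouped by their labels. Genes with at least 10 normalized counts in as many libraries as the smaller group (3 in the table of 8 tumor libraries, fitted as 3 groups) entered limma 3.58.1 (R 4.3.3; lmFit, then eBayes with a trend) as log2(normalized count + 1), with Benjamini-Hochberg adjustment over all genes at 0.05. Counts of genes with higher or lower means refer to this scale, which understates changes of low genes. The test was checked on simulated data. Alternatives were other pseudocounts, filters, variance models and scalings, single libraries left out and other groupings. The text names the 9 markers, and of each of 8 further lists the genes called or, failing that, the 2 with the largest differences, with Ptprc, Tyrobp, Spi1, Csf1 and Lyz1 always. Other cell types (11 lists) are given as sums, and the 6 genes most like C1q by the smaller of 2 correlations. Members and lists were chosen with earlier results of these data known. A further marker and some list genes are not reported here. SMART-Seq libraries do not keep strand, so overlapping genes such as Csf1r and Hmgxb3 cannot be separated fully.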

Additional observations from a re-analysis of the deposited data

Results flagged for a closer look

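In the sorted cells, C1qb in control library CT063 was far from the other controls, at 65.3 normalized counts against 24.4 to 28.8. Mrc1 in mutant library CT070 was far from the other mutants, at 16.3 against 3.66 to 6.79. Both values are low, and the criterion picks about 1 in 20 groups by chance. Groups of 3 libraries were not examined in this way.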

How the results depend on the processing

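Over all genes, the count called in the sorted cells was 467, and 269 without the variance trend, 1054 with array weights, 147 in the table of 6 libraries, 26 with a term for sex and 129 to 600 with single libraries left out. In luminal against basal tumors it was 338, and 52 without a filter, 142 without the trend, 142 with the domains left out, 513 with them pooled and 3 to 813 with single libraries left out. In luminal domains against basal tumors it was 377, and 144, 107 and 52 without a filter, without the trend and in the table of 8 libraries, and 0 to 467 with single libraries left out. Between domains it was 0, and 20 without the trend, and for luminal domains against luminal tumors 0, and 1 without CT140. For luminal against basal tumors, all 9 markers kept a lower mean under every alternative run, and none passed in any, nor did any in the comparisons of domains. In the sorted cells 1 marker passed with array weights, and 0 to 1 with single libraries left out. In the sorted cells the sign turned for C1qa with array weights (0.24). In the table of 6 libraries it turned for Adgre1, Lyz2 and C1qa (0.28, 0.79 and 0.27). It also turned for C1qb with a term for sex (-0.72), which set the mutants against control CT063 alone. C1qb was at 65.3 normalized counts in CT063 and at 24.4 to 28.8 in the other controls. With single libraries left out, values in the sorted cells ranged over -1.20 to 0.024 (Adgre1) and -1.12 to 0.13 (Lyz2). For the C1q genes they ranged over -0.59 to 0.21 (C1qa), -0.071 to 0.69 (C1qb) and 0.35 to 1.39 (C1qc). Between domains they ranged over -0.87 to 0.053 (Apoe), -0.66 to 0.70 (Lyz2) and -0.25 to 1.11 (C1qb), and for luminal domains against luminal tumors over -0.64 to 2.86 (Adgre1) and -1.17 to 1.49 (Csf1r), where quantile normalization gave -0.076 for Csf1r. The cause of these changes was not tested. Without CT126 or CT132, 3 genes were called in luminal tumors, and without CT128 or CT143, 0 in luminal domains against basal tumors. Depth in reads is unknown, so counting error could not be set beside low values such as Mrc1 in sorted cells. No paired analysis was possible because the columns carry library numbers and not the replicate numbers of the labels.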
